A study of Homo sapiens with 3 samples.

Results

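EEA1 and VPS13A, a tether of early endosomes and a carrier of lipids between membranes, are followed here across 3 RNA-sequencing libraries of PLC cells, a human liver cancer line per the labels. Both were chosen by their log2 ratios in these same libraries, low in shHKDC1 and in shRBBP5 relative to NTC, so those ratios are given as a description with no test. They are 2 of the 1015 named genes that were measured, a named gene being one whose RefSeq transcript rows (NM_ or NR_ accessions) were summed and measured meaning a mean of at least 1 CPM (counts scaled to library size) over the libraries. EEA1 has 1 such row and VPS13A has 4. One library, shHKDC1, came from cells in which HKDC1, a hexokinase-domain protein, was knocked down. A second, shRBBP5, came from cells with a knockdown of RBBP5, a core subunit of the complexes that methylate lysine 4 of histone H3. The third, NTC, is the library both are set against. All 3 were of total RNA from the same line in the same medium, and the labels give no clone, dose or time. The study asked whether HKDC1 and RBBP5 regulate gene expression.

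An early endosome receives vesicles that bud from the plasma membrane. EEA1 is a long coiled-coil dimer with a FYVE zinc finger that reads phosphatidylinositol 3-phosphate on the endosome and with sites for the GTPase RAB5, and it catches incoming vesicles before they fuse. VPS13A is a rod with a hydrophobic groove along which phospholipids pass between organelles held close together, such as endoplasmic reticulum, mitochondria and lipid droplets, and its loss causes chorea-acanthocytosis. It belongs to the bridge-like lipid transfer proteins, with VPS13B, VPS13C, VPS13D and the ATG2 proteins.

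The table held 28889040 fragments for shHKDC1, 38633478 for shRBBP5 and 40437578 for NTC, on the assumption that 4 deposited units stand for 1 fragment. Anonymous loci of the transcript assembly took 99.4% to 99.6% of the units, and each value below covers the RefSeq rows of a gene alone. Whether an anonymous locus held further reads of EEA1 or VPS13A was not tested. HKDC1 and RBBP5 had no row under their own names, so the knockdowns themselves were not analysed here. Of 23 hepatocyte markers only 2, the coagulation proteins F5 and FGB, were measured in full, while 0 of 12 immune and 0 of 8 endothelial markers reached the level of measurement. Of 10 fibroblast markers 1 was measured, PDGFRB, and the 8 with rows summed to 1.62 CPM in shHKDC1, 1.86 in shRBBP5 and 0.953 in NTC, with 2 of them at 0. There was 1 library per group, so spread between replicates is unknown for every difference, and each interval is a 95% interval for counting error only. In RNA from bulk cells, fewer cells of a kind and less RNA per cell cannot be told apart.

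The promoters are shown as background, because RBBP5 acts in a histone mark found at promoters. That mark was not analysed here, and any part of these sequences in the levels of the pair was not tested. Each line gives the 250 bases before the annotated start of the gene, from RefSeq on GRCh38.p14, EEA1 at chr12:92929296-92929545 on the minus strand and VPS13A at chr9:77177284-77177533 on the plus strand. Capitals mark any of 3 short motifs on either strand, the CCAAT box (CCAAT), the GC box (GGGCGG) and an ETS core (CCGGAAG).
EEA1: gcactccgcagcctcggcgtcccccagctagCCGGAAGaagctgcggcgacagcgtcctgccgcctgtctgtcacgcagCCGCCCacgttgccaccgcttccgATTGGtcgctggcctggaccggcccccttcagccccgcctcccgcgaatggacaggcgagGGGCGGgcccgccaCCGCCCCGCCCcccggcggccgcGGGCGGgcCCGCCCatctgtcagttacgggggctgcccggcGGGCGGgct
VPS13A: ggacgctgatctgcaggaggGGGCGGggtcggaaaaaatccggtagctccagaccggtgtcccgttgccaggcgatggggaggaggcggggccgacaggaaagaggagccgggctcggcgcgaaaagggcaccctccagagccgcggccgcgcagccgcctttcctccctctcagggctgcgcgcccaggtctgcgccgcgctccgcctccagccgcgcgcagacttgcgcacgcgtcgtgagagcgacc

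Both promoters were rich in CG dinucleotides, 33 in EEA1 and 32 in VPS13A, where the median over 27303 RefSeq promoters of the same length was 11. The GC content was 77.2% for EEA1 and 72.0% for VPS13A, against a median of 58.0%. Beyond that the windows had little in common. EEA1 held 7 GC boxes, of which those that begin at −73 and −68 overlap by 1 base, and VPS13A held 1, at −230. The GC box occurs in 42.3% of all promoters. EEA1 alone of the pair held a CCAAT box, at −147 (33.0% of promoters), and an ETS core, at −219 (8.82%). The E-box CACGTG (6.49%), the TATA box TATAAA (11.1%) and the CRE core TGACGTCA (1.77%) were searched as well and lay in neither window.

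EEA1 was lowest in the shHKDC1 library and between the other libraries in shRBBP5. Its level was 1.97 CPM in shHKDC1 (interval 1.47 to 2.60), 5.40 CPM in shRBBP5 (4.69 to 6.16) and 10.8 CPM in NTC (9.85 to 11.8), from 204, 861 and 1891 deposited units. The 3 intervals do not overlap. The log2 ratio of shHKDC1 over NTC was −2.45 [−2.90 to −2.03], which is 5.45-fold lower. For shRBBP5 over NTC it was −0.9993 [−1.24 to −0.77]. The call required a log2 ratio of at least 1 in size with a counting interval clear of 0, so EEA1 was called lower in shHKDC1 and narrowly missed the call in shRBBP5. Total-count scaling (−1.07), upper-quartile scaling (−1.03) and TMM factors from unsummed rows (−1.003) put it past the call.

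VPS13A stood in the same order. It had 2.62 CPM in shHKDC1 (2.04 to 3.34), 4.99 CPM in shRBBP5 (4.32 to 5.73) and 10.5 CPM in NTC (9.61 to 11.6), from 271, 796 and 1847 units. Again the 3 intervals do not overlap, and both genes were above 1 CPM in every library, so neither passed the filter on its level in NTC alone. The log2 ratio was −2.00 [−2.39 to −1.63] for shHKDC1 over NTC, 4.01-fold lower, and −1.08 [−1.33 to −0.84] for shRBBP5 over NTC, 2.11-fold lower. Both were called lower, the second no longer with TMM factors from the named genes alone (−0.90).

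Markers of the labelled cell type, and 1 fibroblast marker, moved in the same libraries. The hepatocyte markers F5 and FGB were called lower in shHKDC1 than in NTC (−1.81 and −1.99) but not in shRBBP5 (−0.17 and −0.07). F11, another of that list with some of its transcripts missing, was called lower in both (−2.56 in shHKDC1 and −2.16 in shRBBP5). With 0.465 CPM in shHKDC1, 0.614 in shRBBP5 and 2.76 in NTC, F11 reached a mean of 1 CPM only through its level in NTC. The fibroblast marker PDGFRB was called higher in both (1.29 and 1.36). It had 1.48 CPM in shHKDC1, 1.56 in shRBBP5 and 0.605 in NTC, so it passed the filter only through the knockdown libraries. The remaining fibroblast markers with rows, all below the level of measurement, together summed to less in each knockdown than in NTC. These sums rest on few fragments, that of shHKDC1 near the level of 3 fragments (0.116 CPM), so no direction is read from them. The part of these markers in the ratios of EEA1 and VPS13A was not tested.

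**Figure D1:**
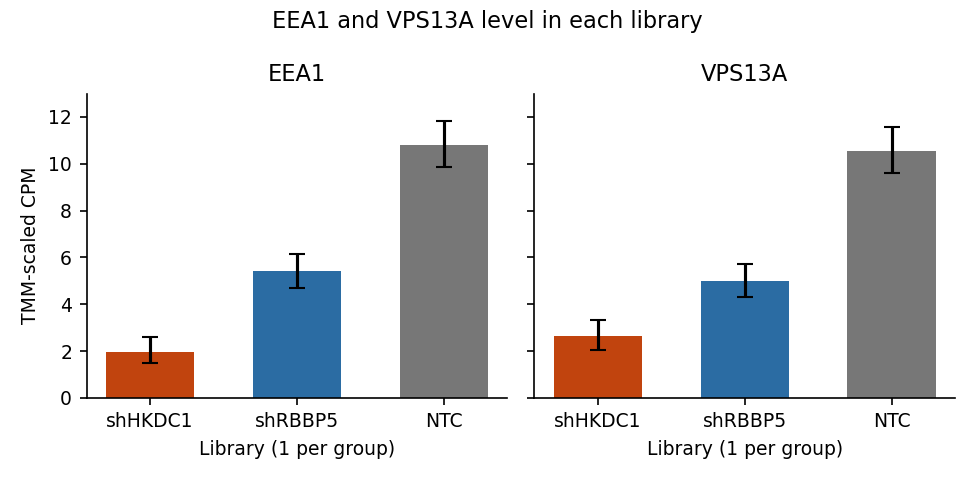
Level of EEA1 (left) and VPS13A (right) in CPM scaled with TMM factors, 1 bar per library, with 95% Poisson intervals on fragments that cover counting error only. For each gene shHKDC1 is lowest (1.97 and 2.62 CPM), shRBBP5 lies between (5.40 and 4.99 CPM) and NTC is highest (10.8 and 10.5 CPM).

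These calls came on a broad background. Of all measured named genes, 23.1% were called lower in shHKDC1 than in NTC and 8.67% in shRBBP5, and 3.05% were called lower in both. Since the ratios to NTC were known when the pair was chosen, nothing is read from their own calls or from their places among the genes. The median log2 ratio of the 1015 named genes was −0.39 for shHKDC1 over NTC and −0.20 for shRBBP5 over NTC. For description, 24 of the 1015 had a lower shHKDC1 ratio than EEA1, and 44 a lower one than VPS13A. In shRBBP5, 90 genes were below EEA1 and 69 below VPS13A.

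**Figure D2:**
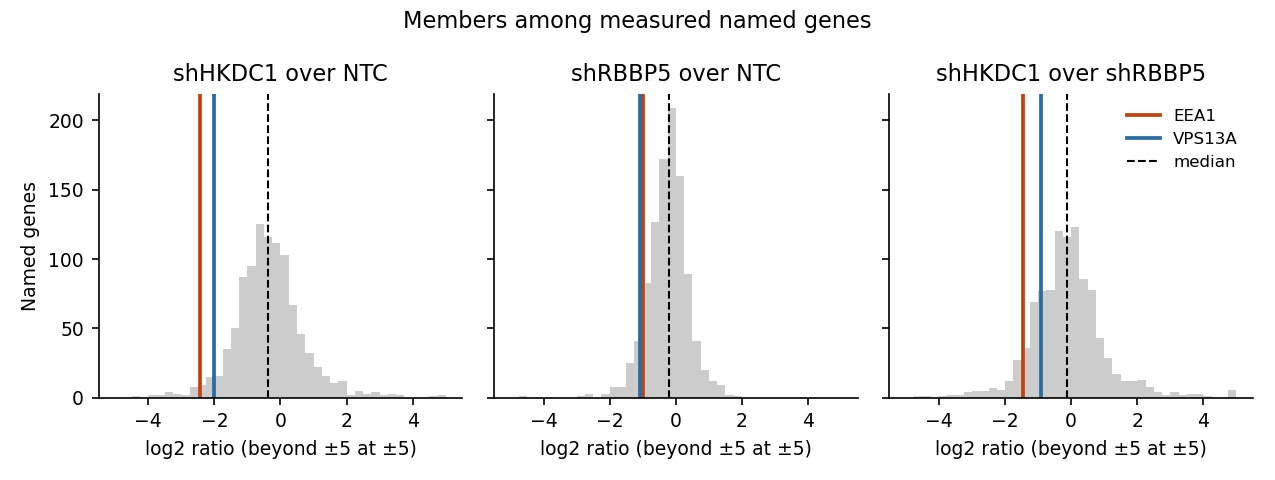
Histograms of the log2 ratios of the 1015 measured named genes for shHKDC1 over NTC, shRBBP5 over NTC and shHKDC1 over shRBBP5, with EEA1 and VPS13A as solid lines and the median of all as a dashed line. The pair lies in the lower tail on the left (−2.45 and −2.00) and nearly coincides in the middle panel (−0.9993 and −1.08).

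The knockdown libraries were also set against each other. EEA1 was called lower in shHKDC1 than in shRBBP5, with a log2 ratio of −1.45 [−1.92 to −1.003], a 2.73-fold difference, where 17.4% of named genes were called lower. VPS13A was 1.90-fold lower (−0.93 [−1.34 to −0.52]) and was not called. It was called under total-count scaling (−1.13), with TMM factors from the named genes alone (−1.07) and when its most abundant row was taken alone (−1.09).

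Dividing EEA1 by VPS13A inside a library removes any scaling between libraries. There were 0.753 EEA1 units per VPS13A unit in shHKDC1 (0.511 to 1.09), 1.08 in shRBBP5 (0.887 to 1.32) and 1.02 in NTC (0.899 to 1.17). The 3 intervals overlap, in a pair that was chosen for being low in the same libraries. Levels of different genes compare only per length. Per kilobase of the longest RefSeq-matched transcript, EEA1 had 0.200 CPM in shHKDC1, 0.547 in shRBBP5 and 1.09 in NTC. VPS13A had 0.171, 0.326 and 0.688 CPM per kilobase in the same libraries.

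VPS13A is the sum of 4 transcript rows that differ mainly at their 3′ ends. In GENCODE 29, NM_033305.3 matches a transcript of 72 exons and 15320 bases that encodes 3174 residues, and 4058 of its bases, all after the coding part, lie in none of the other 3. NM_001018038.3 (69 exons, 3069 residues) has 820 bases of its own, 710 of them after the coding part, and NM_015186.4 (69 exons, 3095 residues) has 607, of which 511 follow it. NM_001018037.2 (71 exons, 3135 residues) has 0 bases of its own, so reads of it cannot be told apart from those of the other rows by position, and it was listed at 0 in all 3 libraries. EEA1 has a single RefSeq row, NM_003566.4, of 29 exons, 9875 bases and 1411 residues.

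The longest row, NM_033305.3, held most of the gene in every library. It stood at 1.83 CPM in shHKDC1, 3.91 in shRBBP5 and 6.47 in NTC, with log2 ratios to NTC of −1.82 [−2.31 to −1.38] in shHKDC1 and −0.72 [−1.02 to −0.44] in shRBBP5. On this row alone, the shRBBP5 library was therefore not called lower. The shorter NM_001018038.3 showed larger ratios, at 0.329 CPM in shHKDC1, 0.527 in shRBBP5 and 3.21 in NTC (log2 −3.27 [−4.62 to −2.36] and −2.60 [−3.35 to −1.94] over NTC). Its level in the knockdown libraries rests on 8 and 21 fragments. NM_015186.4 had 0.465, 0.552 and 0.862 CPM in shHKDC1, shRBBP5 and NTC, and its intervals reached 0 in both ratios to NTC (−0.88 [−1.97 to 0.07] and −0.64 [−1.48 to 0.14]).

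**Figure D3:**
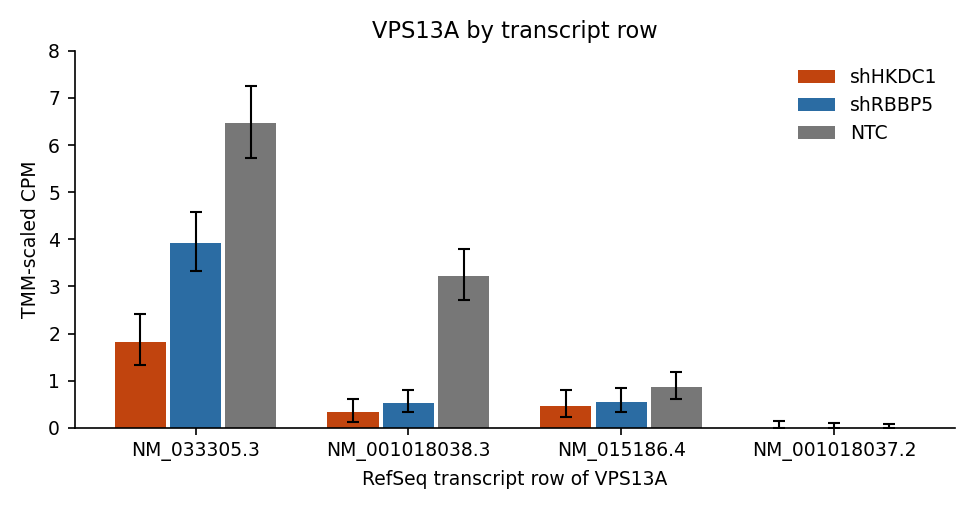
Level of each VPS13A transcript row in TMM-scaled CPM, by library, with 95% Poisson intervals for counting error. NM_001018038.3 stands at 3.21 CPM in NTC but at 0.329 and 0.527 CPM in shHKDC1 and shRBBP5, and NM_001018037.2 is at 0 throughout.

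As a share of VPS13A units, NM_001018038.3 made up 12.5% in shHKDC1 (exact binomial interval 5.30 to 22.2), 10.6% in shRBBP5 (6.65 to 15.7) and 30.5% in NTC (26.3 to 34.9). The share in NTC lay above both knockdown intervals. NM_033305.3 made up 69.7%, 78.4% and 61.3% in the same order of libraries. Such moves between rows were common in this table. Among 612 named genes with at least 2 rows above 0, the largest change in the share of any row had a median of 32.0 percentage points for shHKDC1 over NTC, where VPS13A moved by 17.9. For shRBBP5 over NTC the median was 18.2 points and VPS13A moved by 19.9. In the first comparison 64.2% of the 612 genes moved at least as far as VPS13A, and in the second 48.0%. The 612 genes were not matched for level. They reached down to a mean of 1 CPM, where VPS13A had 6.05, and shares from fewer fragments carry more counting error.

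The genes most like the pair were sought among the 211 protein-coding named genes with a mean of at least 5 CPM, by the distance between their 2 log2 ratios to NTC, which share the NTC library. Nearest to EEA1 was the sulfate transporter SLC26A2 (distance 0.18), with ratios of −2.62 in shHKDC1 and −1.05 in shRBBP5. Next came the ciliary protein EVC (0.44), VPS13A itself (0.45), the kinetochore motor CENPE (0.48) and COBLL1 (0.52). Nearest to VPS13A were CENPE (0.27), with ratios of −2.00 and −0.81, EVC (0.32) and COBLL1 (0.42), then EEA1 (0.45) and FCGBP (0.49). In an order of 210 genes, VPS13A was number 3 for EEA1 and EEA1 number 4 for VPS13A. The likeness rests on 2 ratios over 3 libraries. The pair was chosen by these same ratios, so its closeness follows from that choice and is given as description. EEA1, VPS13A, SLC26A2, CENPE and FCGBP reached a mean of 5 CPM only through their level in NTC.

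Both transcripts are long. Length itself did not enter the choice of the pair, but the low ratios that did were more common among long transcripts, so the feature is not independent of that choice. EEA1 has 9875 bases and VPS13A 15320, and 91 and 23 of the 969 named genes with a known length were longer. Ratios moved with length across those genes, which were split into 4 groups of like size. Among the longest, from 6841 bases up, the median log2 ratio of shHKDC1 over NTC was −0.63 and 31.4% of 242 genes were called lower. Among the shortest, up to 3000 bases, the median was −0.09 and 16.0% of 243 genes were called lower. The groups between, from shorter to longer, had 22.3% and 20.7% called lower, so the rise was not steady. For shRBBP5 over NTC the shares called lower were 12.0% of the longest genes and 6.58% of the shortest, with 9.09% and 7.44% between. With the trend removed, EEA1 stood at −2.17 and VPS13A at −1.60 for shHKDC1 over NTC, still called lower. For shRBBP5 over NTC they stood at −0.86 and −0.91, so that the call of VPS13A was lost. Why ratios moved with length was not tested.

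Other genes of the same pathways did not share one direction. Across 11 lists of endosome, tethering and lipid transfer genes, 38 of 412 genes had any RefSeq row, and 15 were measured with all their transcripts present. Without EEA1 and VPS13A, the other 13 comprised 4 that were called higher in shHKDC1 than in NTC, 2 called lower and 7 not called, beside the 8.37% higher and 23.1% lower of all named genes. Their median log2 ratio was 0.30, against −0.39 for all named genes. With total-count scaling the same 13 genes gave 3 higher and 3 lower, and a median of 0.02 against −0.67 for all. DAB2 and CHMP4A, both among the 4 called higher, reached a mean of 1 CPM only through their level in shHKDC1. Of the 11 that reach it on shRBBP5 and NTC alone, a check added after the values were seen, 2 were called higher, 2 lower and 7 neither, with a median of 0.21. CAV2, called higher among these, reached it narrowly, at 1.01 CPM. These counts and medians describe the genes that passed the filter. In shRBBP5, 0 of the 13 were called in either direction (2.27% of named genes were higher and 8.67% lower), with a median of −0.34 against −0.20 for all. With TMM factors from the named genes alone the median of the 13 was −0.16, against −0.02 for all, and STARD5 was called higher (1.05).

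In the early endosome list EEA1 was measured with 3 others that act on RAB GTPases. RIN1, an exchange factor that activates RAB5, was called higher in shHKDC1, at 3.86 CPM against 1.42 CPM in NTC (log2 1.45 [0.98 to 1.93]), the opposite of EEA1. In shRBBP5 it had 1.33 CPM and a ratio to NTC of −0.09. DENND1B, an exchange factor for RAB35, had 3.34 CPM in shHKDC1, 3.91 in shRBBP5 and 5.14 in NTC, and neither ratio was called (−0.62 and −0.39). ALS2CL, a relative of the RAB5 exchange factor alsin, was nearly level, at 2.32, 1.84 and 2.35 CPM in the same libraries. None of the 27 CORVET, HOPS and SNARE genes had a RefSeq row, and they were not analysed here.

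Of 44 golgins and multisubunit tethers only CCDC186, a coiled-coil protein of dense-core vesicle sorting, was measured. It was called lower in shHKDC1, at 2.17 CPM against 6.14 CPM in NTC (log2 −1.50 [−1.94 to −1.08]), and had 3.52 CPM in shRBBP5 (−0.80 [−1.11 to −0.51]), not called.

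Among the bridge-like lipid transfer proteins, VPS13B could be set beside VPS13A. VPS13B, a Golgi protein altered in Cohen syndrome, had 4.47 CPM in shHKDC1, 7.48 in shRBBP5 and 9.45 in NTC. It was called lower in shHKDC1 (−1.08 [−1.38 to −0.77]), although upper-quartile scaling brought it just short of the call (−0.9995), and it was not called in shRBBP5 (−0.34 [−0.56 to −0.12]). In each ratio to NTC its interval lay wholly above that of VPS13A, which was chosen for its low ratios, so this is given as description. With VPS13A taken from NM_033305.3 alone, the intervals overlapped in shRBBP5 ([−1.02 to −0.44] for that row). In shHKDC1 they overlapped narrowly, the row reaching up to −1.379 and VPS13B down to −1.383. The other 8 genes of that list had no rows. Of 18 listed partners of VPS13A and lipid scramblases, 5 had rows, all of the XKR family and all below the level of measurement. STARD5, a carrier of sterols and bile acids, was the one contact-site lipid carrier measured in full, at 3.66 CPM in shHKDC1, 5.45 in shRBBP5 and 2.98 in NTC (log2 0.30 [−0.10 to 0.69] and 0.87 [0.56 to 1.21] over NTC).

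The 2 measured genes of uptake at the plasma membrane stood highest in shHKDC1. CAV2, a caveolar coat protein, had 3.95 CPM in shHKDC1, 0.878 in shRBBP5 and 1.14 in NTC. Its ratio for shHKDC1 over NTC was 1.79 [1.29 to 2.31]. DAB2, a clathrin adaptor for receptors of the LDL receptor family, had 2.16, 0.564 and 0.850 CPM in the same libraries, with a ratio of 1.34 [0.74 to 1.9998]. Both were called higher in shHKDC1 than in NTC and neither was called in shRBBP5, but DAB2 was measured only because of its level in shHKDC1. CAV2 would have passed the filter only narrowly without shHKDC1, at a mean of 1.01 CPM over shRBBP5 and NTC. CHMP4A, an ESCRT-III subunit, was also called higher in shHKDC1 (1.10 [0.37 to 1.84]), but not with total-count scaling (0.82), and it too passed the filter only through shHKDC1, at 1.49 CPM against 1.20 in shRBBP5 and 0.696 in NTC. The sorting nexin SNX16, the Commander subunit VPS35L and the myotubularins MTMR8 and MTMR9 were called in neither knockdown, with MTMR9 nearest at 0.95 in shHKDC1, past the call with upper-quartile scaling (1.03), and MTMR8 at −0.87 [−1.59 to −0.21], past it with total-count scaling (−1.15).

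**Figure D4:**
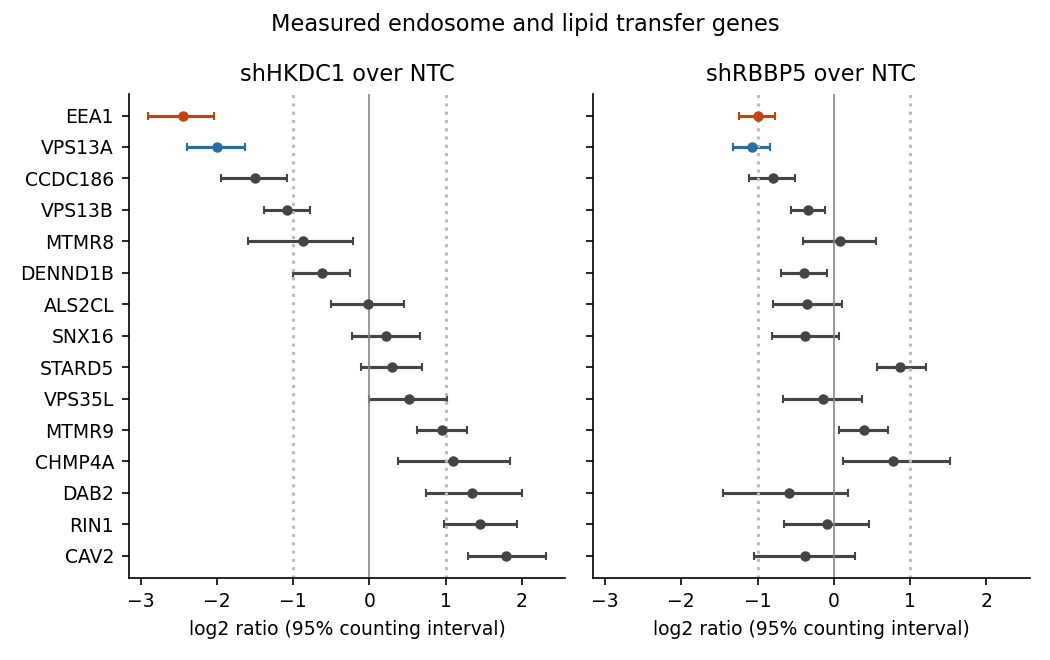
Log2 ratios of the 15 measured endosome, tether and lipid transfer genes for shHKDC1 over NTC (left) and shRBBP5 over NTC (right), with 95% counting intervals and dotted lines at the size needed for a call. In shHKDC1 the genes spread from −2.45 (EEA1) to 1.79 (CAV2), and in shRBBP5 from −1.08 (VPS13A) to 0.87 (STARD5). EEA1 and VPS13A were chosen by their low ratios.

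**Figure D5:**
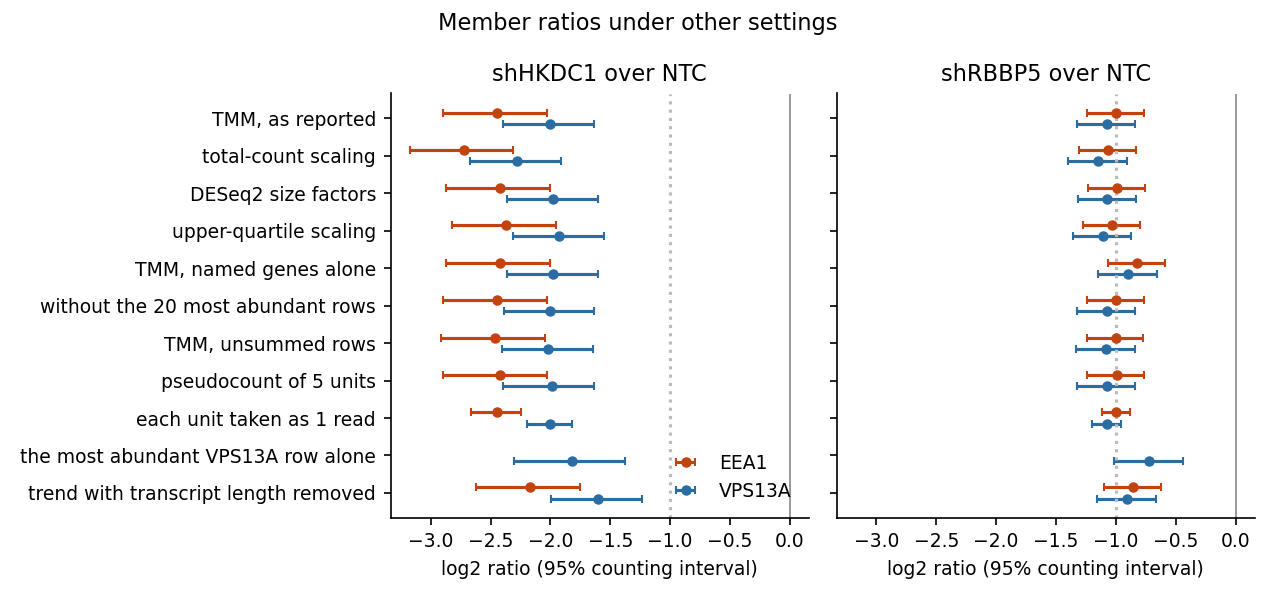
Log2 ratios of EEA1 and VPS13A to NTC under each scaling, pseudocount and summing choice and with the length trend removed, with 95% counting intervals and a dotted line at the size needed for a call. In shHKDC1 the ratios run from −2.72 to −2.17 for EEA1 and from −2.28 to −1.60 for VPS13A, all past the line, and in shRBBP5 they fall on both sides of it.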

How the data were processed

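Total RNA of PLC cells was extracted with TRIzol and libraries were prepared with HiScript III RT SuperMix (Vazyme), per the labels. The submitters' processing notes list hg19 as genome build and, without a role, the tools DESeq2 1.28.1, StringTie 1.3.4 and HISAT2 2.2.1. The deposited file holds whole numbers, taken here as estimated counts that are not scaled for depth or length. Which tool counted, with which annotation and strand setting, is not given in the sources used here. Columns named NTC, shHD and shRB were matched to NTC, shHKDC1 and shRBBP5.

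RefSeq rows were matched to symbols without version in RefSeq GRCh38.p14 (46 of 27403 unmatched) and summed per gene, using genes with every transcript present (11642 of 12034). TMM factors (edgeR 4.0.16, R 4.3.3) were 0.894 for shHKDC1, 1.03 for shRBBP5 and 1.08 for NTC. Log2 ratios used a pseudocount of 0.5 units, and exact 95% Clopper-Pearson intervals used a conditional binomial on fragments. At this depth 3 fragments equal 0.116, 0.0752 and 0.0685 CPM in shHKDC1, shRBBP5 and NTC. Reads carried no molecular identifiers and need not be independent molecules, so intervals may be too narrow. The 4 units per fragment are an assumption from a pile-up of low values, since 525 NTC rows held 4 units where 332 held 3 and 235 held 5. The intervals and calls were run on simulated independent fragments, with the same 4 units per fragment and no spread between libraries. That simulation cannot test the assumed units, repeated reads or spread between replicates. Members, gene lists and lengths were chosen with earlier results of these data known. Named were the pair, measured pathway genes by mean CPM (up to 4 per list), and the 5 nearest genes of each member.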

Additional observations from a re-analysis of the deposited data

How the results depend on the processing

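With 1 library per group, no replicate could be left out. No paired analysis was possible because each group has 1 library and the labels give no replicate numbers. EEA1 and VPS13A stayed called lower in shHKDC1 than in NTC under all 9 and 10 alternatives tried, with ranges of −2.72 to −2.17 and −2.28 to −1.60, and EEA1 stayed called lower in shHKDC1 than in shRBBP5 (−1.66 to −1.28). The pair was chosen by its ratios to NTC. Among the alternatives, taking each unit as 1 read left the ratios as they were and only narrowed their intervals, so it could not undo a call.

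For shRBBP5 over NTC the calls depended on the setting. EEA1 was called lower with total counts (−1.07), upper quartiles (−1.03) and TMM factors from unsummed rows (−1.003), and VPS13A was no longer called with TMM factors from the named genes alone (−0.90), its most abundant row alone (−0.72) or the length trend removed (−0.91). For shHKDC1 over shRBBP5, VPS13A was called with total counts (−1.13), factors from the named genes (−1.07) and its most abundant row (−1.09). The all-feature median went from −0.03 to −0.31 with total counts for shHKDC1 over NTC, and from 0.01 to 0.18 with factors from the named genes for shRBBP5 over NTC. Unsummed rows, the length trend and the restriction to protein-coding genes were chosen after the data were seen.

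Counts of named genes called, of 1015 tested, were 85 higher and 234 lower for shHKDC1 over NTC, 23 and 88 for shRBBP5 over NTC, and 116 and 177 for shHKDC1 over shRBBP5. In that order of comparisons, with no filter 11642 genes gave 557 and 472, 134 and 291, and 661 and 390. With a mean CPM of at least 5, 216 genes gave 2 and 48, 0 and 7, and 3 and 32, and the 211 protein-coding ones gave 2 and 46, 0 and 7, and 3 and 30. Factors from the named genes gave 37 higher and 56 lower for shRBBP5 over NTC. Total counts lowered the share of calls that were higher from 26.6% to 14.6% for shHKDC1 over NTC. The causes of these changes were not tested.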
